A study of Mus musculus with 6 samples.

Results

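The STAT genes encode the transcription factors that carry cytokine signals from receptors at the cell surface to the nucleus, and 6 of them, Stat2, Stat3, Stat4, Stat5a, Stat5b and Stat6, were followed in lung RNA. Members were the genes of these names, and a probe belonged to a gene when the accession printed on the array for it mapped to that gene in RefSeq. This gave 9 probes, and the brightest probe stood for its gene. All 6 genes passed the filter on dim probes and were among the 16366 genes tested. The lungs came from 10-week-old male C57BL6 mice that were starved for 16 h and then given LPS, the lipopolysaccharide of Gram-negative bacteria, i.p. at 20 mg/kg. Saline or recombinant human thrombomodulin (rhTM, a soluble form of the endothelial receptor for thrombin) was injected i.p. 3 and 24 h later, and lungs were taken at 30 h from 3 saline-treated mice and 3 rhTM-treated mice, with 1 Agilent array for each mouse. Both groups received LPS and starvation, so the comparison sets rhTM against saline in endotoxaemic lung and does not show what LPS itself did.

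STAT proteins wait in the cytoplasm until a cytokine binds its receptor and the attached JAK kinases phosphorylate them. They then pair, enter the nucleus and bind DNA. STAT2 works with IRF9 in the ISGF3 complex downstream of type I interferon. STAT3 carries signals of the IL-6 family and IL-10 and drives acute-phase genes, STAT4 carries those of IL-12, STAT5A and STAT5B those of GM-CSF, IL-2, growth hormone and prolactin, and STAT6 those of IL-4 and IL-13. Several STAT genes are themselves transcribed in response to cytokines, but the activity of the proteins depends on phosphorylation, which an mRNA array does not measure.

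Signals are given as log2 of the array's processed signal minus the log2 of its 75th percentile, so that 0 is the brightness of the 75th percentile probe, and values of different probes are not set against each other. Between 36243 and 40647 of 56605 probes were well above background on an array. The arrays lay on 2 slides, with saline replicate 1 and rhTM replicate 3 on slide 2. Beside the scanner output the authors deposited a table of values, in which the columns labelled saline replicate 1 and rhTM replicate 2 are exchanged, since 99.9% of probes in each matched the other mouse's array within 0.1%, while the other 4 columns matched their own arrays. Which assignment is right was not settled by the labels. Results are therefore given by the scanner output, with the table's assignment beside them. Lung is a mixture of cells, so fewer cells of a type and less RNA in each cell cannot be told apart. The number of arrays limited the precision throughout, since the exact permutation test of 3 mice against 3 cannot give a p under 0.10.

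The start regions of the STAT genes were searched for the letters that STAT and IRF proteins are known to bind. RefSeq start windows (250 bases before to 50 after a start, assembly GRCm38.p6) were held for all 6 genes, 9 windows in all. The letters GAAANNGAAA, the core that ISGF3 and IRF proteins bind, were searched on both strands and lay in 2 of the 9 windows, 1 of Stat2 and 1 of Stat4, against 3.44% of 32851 windows of this length. The stretches of 60 bases around them are shown because they are where these members share such a core, which is in capitals. The Stat2 stretch (chr10:128270256-128270315, plus strand) runs from 242 to 183 bases before the start and holds the core on its reverse strand, and the Stat4 stretch (chr1:52008123-52008182, plus strand) runs from 117 to 58 bases before one of its starts.
Stat2: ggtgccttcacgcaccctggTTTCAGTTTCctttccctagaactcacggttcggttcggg
Stat4: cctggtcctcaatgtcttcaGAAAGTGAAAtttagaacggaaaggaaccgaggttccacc

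The palindrome TTCNNNGAA, which most STAT dimers bind, was in 0 of the 9 windows, against 8.3% of all windows. TTCNNNNGAA, the wider spacing that STAT6 prefers, was in 1, that of Stat2, against 6.95%, and lies within the Stat2 stretch shown without overlapping the core. A match of letters is not a measured binding site, and no match says only that these letters are not in these windows. Stat5a and Stat5b, neighbours on chromosome 11 that are read in opposite directions, have windows with a common stretch of 55 bases in which 49 (89.1%) are the same. Both versions are shown 5′ to 3′ on the strand of the gene, since the copies can be followed base by base, with shared bases in capitals and differing bases in lower case. The Stat5a stretch (chr11:100860418-100860472, plus strand) ends 12 bases before a start and the Stat5b stretch (chr11:100822573-100822627, minus strand) ends 3 bases before a start.
Stat5a: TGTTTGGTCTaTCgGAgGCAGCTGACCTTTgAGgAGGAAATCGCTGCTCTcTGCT
Stat5b: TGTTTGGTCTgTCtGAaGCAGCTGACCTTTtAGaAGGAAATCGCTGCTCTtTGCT

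None of the 6 STAT genes differed between rhTM-treated and saline-treated mice beyond the spread between mice. By the scanner output, limma called 0 STAT genes at an adjusted p under 0.05, and also 0 (0%) of the 16366 genes tested. At an unadjusted p under 0.05 it called 0 STAT genes, against 306 genes or 1.87% of all. Stat2, Stat3, Stat4 and Stat5a had the higher mean with rhTM and Stat5b and Stat6 the lower, and 50.7% of all genes had the higher mean with rhTM. For 0 of the 6 did the groups separate without overlap, which 5.52% of all genes did. By the table's assignment 5 of the 6 had the higher mean with rhTM (46% of all genes), and limma again called 0 genes at an adjusted p under 0.05, with 0 STAT genes and 14% of all genes at an unadjusted p under 0.05. There 1 STAT gene, Stat6, lay without overlap, as did 21.7% of all genes. Its rhTM arrays were below its saline arrays, the direction of 12% of all genes.

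**Figure D1:**
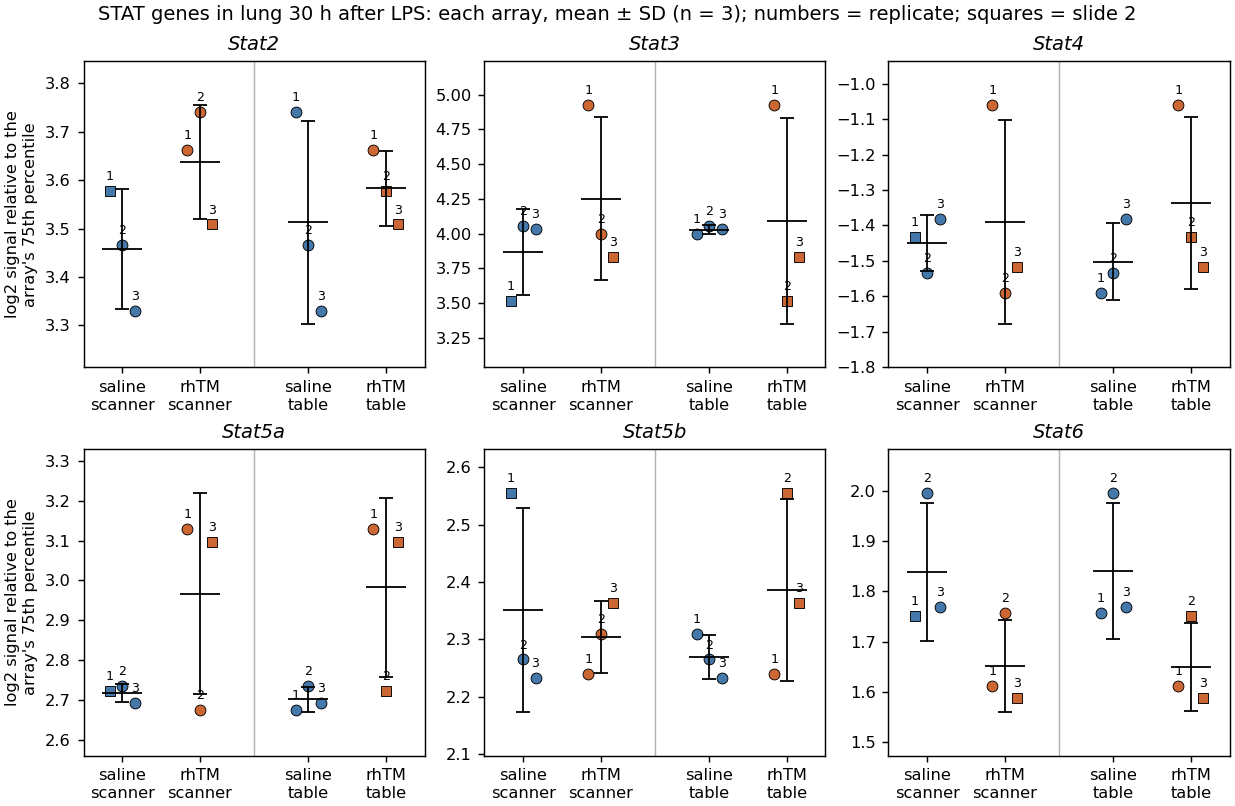
The 6 STAT genes on each array (log2 signal relative to the array's 75th percentile), with saline in blue and rhTM in orange, the mean and SD of 3 mice as bars, replicate numbers beside the points and squares for slide 2. The left pair of columns in each panel follows the scanner output and the right pair the authors' table, and the rhTM replicate 1 array stands above the other 5 in Stat3 and Stat4.

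**Figure D2:**
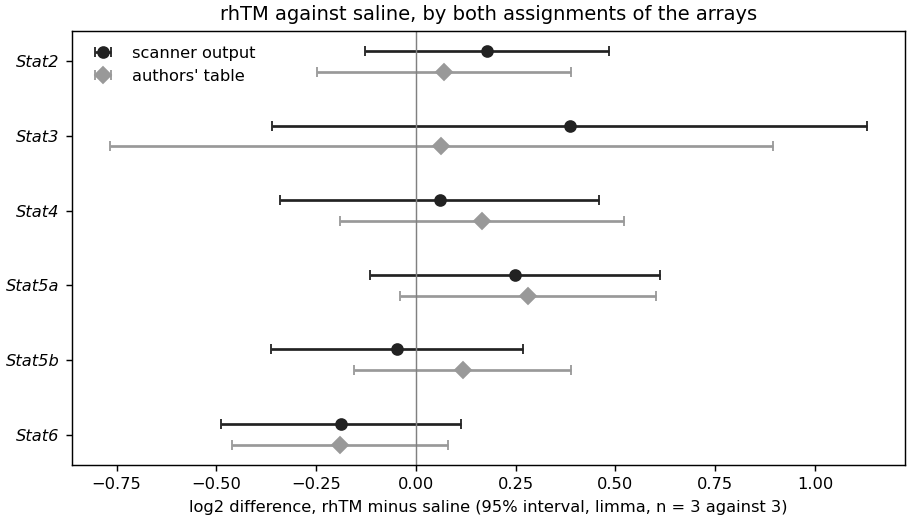
The log2 difference, rhTM minus saline, of each STAT gene with its 95% interval from limma (n = 3 against 3), by the scanner output (black circles) and by the authors' table (grey diamonds). Every interval includes 0, and that of Stat3 is the widest, from -0.36 to 1.13 by the scanner output.

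Stat2, the interferon-pathway member, had log2 signals of 3.58, 3.47 and 3.33 in saline replicates 1 to 3 and of 3.66, 3.74 and 3.51 in rhTM replicates 1 to 3. A pair of rhTM arrays lay above all saline arrays, and rhTM replicate 3 lay below saline replicate 1. The mean signal was 11.02 ± 0.942 times the 75th percentile with saline and 12.5 ± 1.01 with rhTM (SD, n = 3 each). The log2 difference was 0.18 (SE 0.13, 95% interval -0.13 to 0.48, limma adjusted p = 0.9999, exact two-sided permutation p = 0.2), a fold of 1.13. The table's assignment gave 0.07, the mean of both Stat2 probes 0.02, and the scanner output 0.11 without saline replicate 3. On slide 1 alone the difference was 0.30 and on slide 2, with 1 mouse of each group, it was -0.07.

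The partners and targets of STAT2 showed small differences as well. Ifnar1 and Ifnar2, the chains of the type I interferon receptor, differed by -0.06 each on the log2 scale. Irf9, the DNA-binding partner of STAT2, differed by 0.03, and Usp18, the protease that damps the interferon receptor, by 0.04. By the table these were -0.12 for Ifnar1, 0.01 for Ifnar2, 0.12 for Irf9 and 0.16 for Usp18. Ifnar1 lay below saline on every rhTM array there, as did 12% of all genes. Among 17 tested genes listed as ISGF3 targets (of 19), 13 had the higher mean with rhTM and 4 the lower, 0 passed the test, 0 lay without overlap, and the median log2 difference was 0.03 against 0.00 for all genes. The largest differences in that list were those of Ifit1 (0.25) and Isg15 (0.18), both interferon-induced antiviral genes, and neither passed the test. By the table the median was 0.08 and Isg15 (0.24) was the 1 gene without overlap, above saline on every rhTM array, where 9.68% of all genes lay. The median was 0.00049 without rhTM replicate 1 and -0.06 without saline replicate 3.

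Stat3 varied more from mouse to mouse than any other member. Its log2 signals were 3.51, 4.06 and 4.03 in saline replicates 1 to 3 and 4.93, 4.0 and 3.83 in rhTM replicates 1 to 3. The rhTM replicate 1 array was 0.93 above the median of the other 5, an excess larger than that of 97.4% of genes on the same array, while rhTM replicates 2 and 3 lay within the range of the saline mice. The whole range over 6 arrays was 1.41 on the log2 scale, wider than that of 92.2% of genes, against a median of 0.54 over all genes. Mean signals were 14.8 ± 2.94 times the 75th percentile with saline and 20.2 ± 8.88 with rhTM (SD, n = 3 each), and the log2 difference was 0.39 (SE 0.31, 95% interval -0.36 to 1.13, limma adjusted p = 0.9999, exact two-sided permutation p = 0.6).

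How far Stat3 differed depended on single arrays. By the scanner output the log2 difference was 0.05 without rhTM replicate 1, 0.21 without saline replicate 1 and 0.59 without rhTM replicate 3. By the table it was 0.06 with all arrays, adjusted p = 0.94 by limma, and -0.35 without rhTM replicate 1. Slide also moved with Stat3, since both arrays of slide 2 were the lowest of the 6, and slide 2 was 0.58 below slide 1 (limma adjusted p = 0.35). Both arrays of slide 2 lay apart from the rest in 32.7% of all genes, and 1.42% passed an adjusted p under 0.05 between slides, 0 of them STAT genes. Within slide 1 rhTM minus saline was 0.42, and within slide 2, with 1 mouse a group, 0.32. With the table's assignment both slide 2 arrays fall in the rhTM group, and a slide term then leaves rhTM replicate 1 alone against saline. That fit gave a log2 difference of 0.90 with a limma adjusted p of 0.049, a threshold that 2.65% of all genes passed in the same fit.

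Of the genes around STAT3, Socs3, Osmr and Il6 were highest on the same array and Il6st was lowest on it. Socs3, the feedback inhibitor of gp130 cytokines and a standard STAT3 target, had log2 signals of 4.65, 4.71 and 4.42 with saline and of 5.74, 4.55 and 4.53 with rhTM. Osmr, the oncostatin M receptor, had 3.39, 3.28 and 3.26 with saline and 4.28, 3.33 and 3.62 with rhTM. Il6 had 1.17, 0.45 and -0.12 with saline and 2.16, 0.02 and 0.66 with rhTM. In all 3 the rhTM replicate 1 array was the highest of the 6, as in 29.8% of all genes, and the groups overlapped. Their log2 differences were 0.35 for Socs3, 0.43 for Osmr and 0.45 for Il6, while Il6st, which encodes the shared receptor chain gp130, was lower with rhTM, at -0.32, and none passed the test. Il6st had 2.63 on rhTM replicate 1 and 3.06 to 3.50 on the other 5 arrays. By the table's assignment Osmr (0.47) and Il6 (1.21) lay above saline on every rhTM array, as did 9.68% of all genes.

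All 18 genes listed as STAT3 targets were tested, and 16 had the higher mean with rhTM, with a median log2 difference of 0.18 against 0.00 for all genes. Without rhTM replicate 1 that median was 0.015. None passed the adjusted test. Hif1a, the hypoxia-inducible transcription factor, was the only one whose groups did not overlap by the scanner output, at 3.73, 3.80 and 3.67 with saline and 4.48, 3.98 and 4.32 with rhTM, a difference of 0.53 with an unadjusted limma p of 0.01 and an adjusted p of 0.9999. That is 1 of 18, and 2.95% of all genes lay above saline on every rhTM array. By the table its difference was 0.36 and the groups overlapped. In the authors' values 7 of the 18 lay above saline on every rhTM array, as did 9.68% of all genes, and the median was 0.29. Counted after the values were seen, 13 of the 18 (72.2%) were highest on rhTM replicate 1, as were 29.8% of all genes, and their median excess there over the other 5 arrays was 0.53 against 0.02 for all genes. Timp1, an inhibitor of metalloproteinases, and Pim1, a survival kinase, were among them, with group differences of 0.38 and 0.30.

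Summed markers of several cell types were also highest on that array, and those of others were not. The summed signal of 9 tested neutrophil markers (of 10, with no probe matched for Ly6g) was 1225 times the 75th percentile on rhTM replicate 1 and 942 to 1099 on the other 5 arrays, and 5 of the 9 were highest there. The 5 platelet markers summed to 27.1 there and to 10.1 to 14.6 elsewhere, mostly through Pf4, and 3 of the 5 were highest there. Erythroid markers (4 tested, 3 of them highest there) summed to 875 against 598 to 783, and ciliated-cell markers (5 tested, all highest there) to 46.8 against 31.8 to 41.7. Alveolar type 2 markers had their lowest sum there, at 1273 against 1294 to 1762, with 6 of 7 lowest on that array, as were 4 of 7 macrophage and 3 of 5 fibroblast markers. The macrophage sum there was 347, within the 297 to 353 of the other arrays, and the fibroblast sum 117, within 113 to 175. Of all 16366 genes, 29.8% were highest and 4358 lowest on that array. Of 6 endothelial markers 3 were highest there and 3 lowest. The part of these cells in the Stat3 and target signals was not tested.

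**Figure D3:**
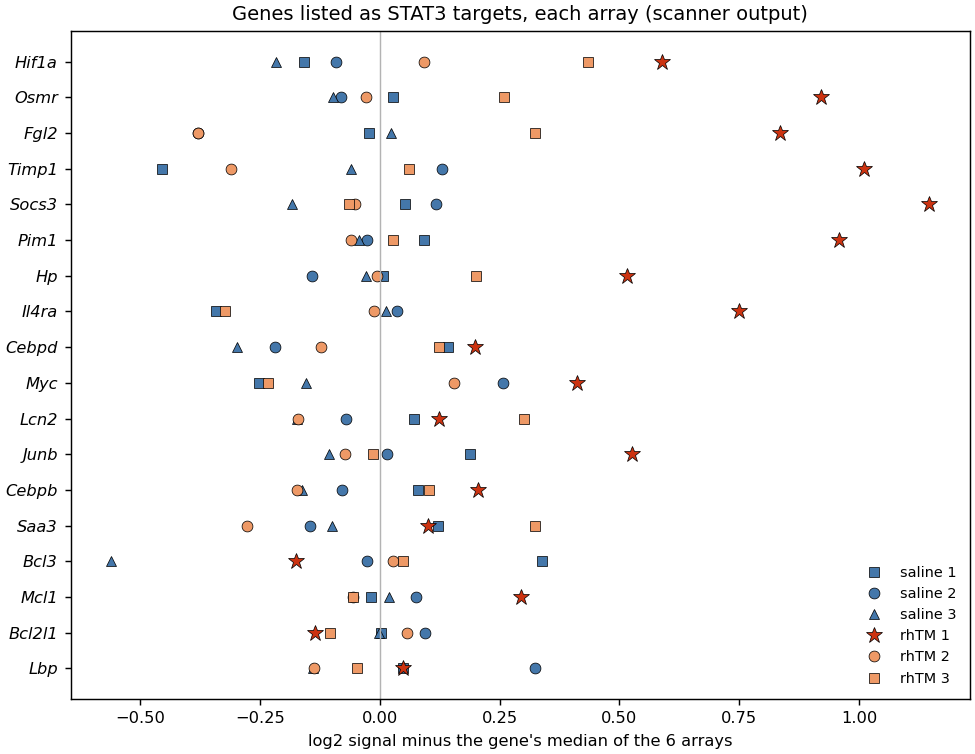
The 18 genes listed as STAT3 targets on each array of the scanner output, as log2 signal minus the gene's median over the 6 arrays, sorted by the difference between groups. The rhTM replicate 1 array (stars) is the highest in 13 of the 18, while rhTM replicate 2 (orange circles) mostly lies among the saline arrays (blue). The rhTM replicate 3 array (orange squares) lies above all saline arrays in some genes, such as Hif1a, Hp and Osmr, and among or below them in others.

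The 2 Stat3 probes carry accessions of different Stat3 transcripts, and they did not follow each other closely (Pearson r = 0.45 over 6 arrays, as a description). The dimmer probe had -1.45, -1.59 and -1.73 with saline and -1.20, -1.81 and -1.41 with rhTM. It was also highest on rhTM replicate 1, but its range was 0.62 on the log2 scale against 1.41 for the brighter probe, and its difference was 0.12. By the table's assignment its rhTM arrays all lay above its saline arrays, with a difference of 0.36 (limma adjusted p = 0.35 over all probes), as did those of 10.6% of all probes. Stat2 and Stat5a also had a second probe. That of Stat2 ranged over 2.18 on the log2 scale, had a difference of -0.15 and followed the brighter probe no more than by r = -0.01. That of Stat5a had a difference of -0.01 and r = -0.28 with its brighter probe. All 9 STAT probes were well above background on all 6 arrays and 0 were saturated.

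**Figure D4:**
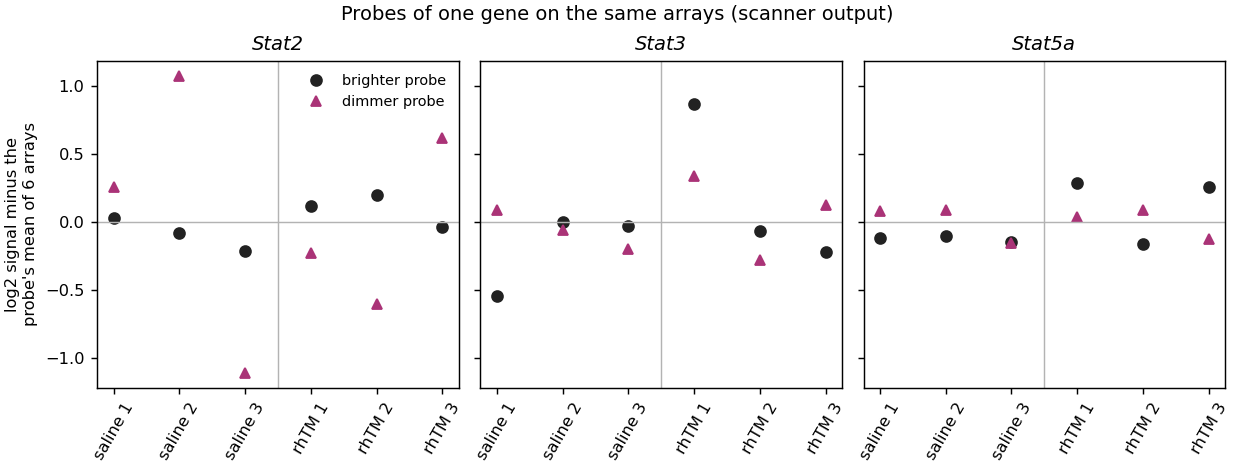
Both probes of Stat2, Stat3 and Stat5a on each of the 6 arrays (scanner output), as log2 signal minus the probe's own mean, with circles for the brighter and triangles for the dimmer probe. Only in Stat3 are both probes highest on the rhTM replicate 1 array, and the dimmer Stat2 probe scatters most.

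Stat4, which serves IL-12 signalling in natural killer (NK) cells and T cells, had log2 signals of -1.43, -1.54 and -1.38 with saline and -1.06, -1.59 and -1.52 with rhTM. The highest and the lowest value both came from rhTM-treated mice. Mean signals were 0.366 ± 0.020 times the 75th percentile with saline and 0.387 ± 0.081 with rhTM (SD, n = 3 each), and the log2 difference was 0.06 (SE 0.17, 95% interval -0.34 to 0.46, exact two-sided permutation p = 0.9, limma adjusted p = 0.9999). It was -0.11 without rhTM replicate 1, and 0.17 by the table's assignment.

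The summed NK-cell signal and Stat4 were highest and lowest on the same arrays. The 7 NK markers summed to 39.9, 30.6 and 54.1 times the 75th percentile in saline replicates 1 to 3 and to 55.1, 23.9 and 45.6 in rhTM replicates 1 to 3, with most of the sum from Gzma. The other 6 were all highest on saline replicate 3, and 6 of the 7, Gzma among them, were lowest on rhTM replicate 2. All 7 had the lower mean with rhTM, 2 of them (Ncr1 and Klre1) without overlap, which 2.57% of all genes showed in this direction. Klre1 was dim, at -4.60, -4.48 and -1.94 with saline and -5.67, -4.99 and -4.69 with rhTM, with saline replicate 3 far above the rest. By the table's assignment 3 of the 7 had the higher and the groups overlapped in all 7. The 7 tested T-cell markers (of 8) summed to 26.6 and 23.6 on the slide 2 arrays and to 7.48 to 7.95 on the others, through the Cd4 probe. The part of these cells in the Stat4 signal was not tested. Il12rb1 (-0.06) and Il12rb2 (-0.09), the IL-12 receptor chains, and Ifng (0.17), the interferon that STAT4 induces, differed by no more than the spread between mice. By the table they were 0.18, 0.20 and 0.46, so that both receptor chains turned, and the groups overlapped. Of 9 genes listed as STAT4 targets 4 had the higher mean with rhTM, 5 the lower and 0 passed the test, with a median of -0.04 (0.16 by the table's assignment). That median was -0.15 without rhTM replicate 3 and 0.08 without rhTM replicate 2. Tbx21 (-0.34) and Hlx (-0.33), transcription factors of type 1 lymphocytes, had the largest differences, and their groups overlapped. By the table both turned, to 0.23 and 0.05.

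Stat5a was the steadiest member in the saline-treated mice, at 2.72, 2.74 and 2.69, and spread wider in the rhTM-treated mice, at 3.13, 2.68 and 3.1. A pair of rhTM arrays, 1 on each slide, lay above all saline arrays and rhTM replicate 2 lay below them. Mean signals were 6.58 ± 0.102 times the 75th percentile with saline and 7.90 ± 1.31 with rhTM (SD, n = 3 each), for a log2 difference of 0.25 (SE 0.15, 95% interval -0.11 to 0.61, limma adjusted p = 0.9999, exact two-sided permutation p = 0.4). The table, in which rhTM replicate 2 holds the other array, gave 0.28 (adjusted p = 0.39) and the groups still overlapped. The difference was 0.39 without rhTM replicate 2 and 0.12 with the mean of both Stat5a probes.

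Stat5b, its close relative, did not show this spread. Its log2 signals were 2.56, 2.26 and 2.23 with saline and 2.24, 2.31 and 2.36 with rhTM. Both arrays of slide 2 were the highest, at 0.20 above slide 1 (limma adjusted p = 0.41). Mean signals were 5.13 ± 0.652 times the 75th percentile with saline and 4.94 ± 0.213 with rhTM (SD, n = 3 each), and the log2 difference was -0.05 (SE 0.13, 95% interval -0.36 to 0.27, limma adjusted p = 0.9999, exact two-sided permutation p = 0.9). The sign turned by the table, at 0.12. Although their start windows share the stretch shown above, Stat5a and Stat5b had r = -0.15 over the 6 arrays. Their mRNAs are alike and the probe sequences were not used here, so whether each probe also takes up RNA of the other gene was not tested.

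Receptors that signal through STAT5 had log2 differences of -0.06 for Csf2rb, the shared chain of the GM-CSF, IL-3 and IL-5 receptors, and of -0.09 for Il2rb, a chain of the IL-2 and IL-15 receptors. By the table these were -0.29 for Csf2rb and 0.14 for Il2rb. Csf2rb lay below saline on every rhTM array there, as did 12% of all genes. Cish, a feedback inhibitor induced by STAT5, differed by -0.02, and by -0.11 with every rhTM array below saline by the table. Socs2, the inhibitor of growth hormone signalling, had 3.66, 3.36 and 3.46 with saline and 3.99, 3.39 and 4.0 with rhTM, high on the same pair of rhTM arrays as Stat5a. Its difference was 0.30, and 0.48 by the table, where the groups no longer overlapped. Of 10 genes listed as STAT5 targets 8 had the higher mean with rhTM and 2 the lower, 0 passed the adjusted test and the median was 0.12 (0.25 by the table, 0.040 without rhTM replicate 1 and 0.23 without saline replicate 1). Igf1, the growth factor, was the 1 whose groups did not overlap by the scanner output, at -2.47, -2.38 and -2.42 with saline and -2.18, -1.92 and -1.18 with rhTM, a difference of 0.66 with an adjusted p of 0.9999 by limma. Separation of the groups in this direction was seen in 2.95% of all genes, and by the table the Igf1 groups overlapped (0.30). There Cish lay below saline and 4 of the 10 lay above it on every rhTM array (Socs2, Pim1, Il2ra at 0.40 and Lrrc32 at 0.44), where 21.7% of all genes lay without overlap.

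Stat6, the IL-4 and IL-13 member, was the 1 STAT gene with the lower mean with rhTM by both assignments. Its log2 signals were 1.75, 2.00 and 1.77 with saline and 1.61, 1.76 and 1.59 with rhTM, and the groups overlapped only through rhTM replicate 2, which lay just above saline replicate 1. Mean signals were 3.59 ± 0.349 times the 75th percentile with saline and 3.15 ± 0.203 with rhTM (SD, n = 3 each). The log2 difference was -0.19 (SE 0.13, 95% interval -0.49 to 0.11, limma adjusted p = 0.9999, exact two-sided permutation p = 0.2). It was -0.20 within slide 1, -0.16 within slide 2 and -0.11 without saline replicate 2. By the table it was also -0.19 (adjusted p = 0.46), and there the groups were narrowly separated.

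Genes on either side of STAT6 pointed both ways. Il4ra, the IL-4 receptor chain, and Il13ra1, its partner for IL-13, differed by 0.23 and 0.37 (0.02 and 0.39 by the table), and both were highest on rhTM replicate 1. Retnla, a secreted protein of alternatively activated macrophages, had 6.11, 4.87 and 6.02 with saline and 7.65, 4.39 and 7.39 with rhTM, a difference of 0.81 with overlapping groups and of 1.96 without overlap by the table. Of 16 tested genes listed as STAT6 targets (of 17) 11 had the higher mean with rhTM, 5 the lower and 0 passed the adjusted test, with a median of 0.09 (0.02 by the table, 0.0015 without rhTM replicate 1 and 0.16 without rhTM replicate 3). Gata3, a transcription factor of type 2 lymphocytes, was the 1 gene without overlap by the scanner output, below saline on every rhTM array (-0.26), as did 2.57% of all genes, and by the table its groups overlapped (-0.19). Of the 15 genes of this list tested by the table, Retnla, Ccl11 (0.65), Socs1 (0.26) and Pdcd1lg2 (0.38) lay above saline on every rhTM array and Ch25h (-0.53) below, against 21.7% of all genes without overlap. Alox15, a lipoxygenase that IL-4 induces, named here after its values were seen, was well above background on all 3 saline arrays and on no rhTM array. Its signals of -5.57, -3.85 and -4.31 with saline and -5.45, -5.37 and -6.15 with rhTM overlapped, and no fold is given. It passed the filter through the saline arrays and is 1 of the 5 lower genes of the list, whose median was 0.11 without such genes.

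Among themselves the STAT genes did not move together. Over the 6 arrays Pearson r ran from 0.78 for Stat3 with Stat4 to -0.72 for Stat5a with Stat6 and for Stat3 with Stat5b, as a description of arrays that share their scaling and slides. With each group's mean removed the values were 0.80, -0.49 and -0.71. For Stat3 and Stat4 the shared feature was the high rhTM replicate 1 array, and 3 of the 6 members (Stat3, Stat4 and Stat5a) were highest on it, as were 29.8% of all genes. The genes whose pattern was most like a member's over the 6 arrays were Tmem28 (r = 0.997) and Cbfb (0.984) for Stat2, Ifitm5 (0.998) and Ugdh (0.997), which makes the sugar donor for glucuronic acid chains, for Stat3, and Tlr13 (0.997), a sensor of bacterial RNA, and Klf9 (0.990) for Stat4. They were Speer4a (0.990) and Ncam1 (0.987) for Stat5a, Psmc2 (0.994), a proteasome subunit, and Gm16023 (0.988) for Stat5b, and Gemin5 (0.995) and Cdh3 (0.993) for Stat6. With 6 arrays such values are common. An r over 0.95 was reached by 246 genes with Stat3, 92 with Stat6, 90 with Stat4, 49 with Stat5a, 38 with Stat5b and 12 with Stat2.

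Upstream of the STAT proteins, the 4 JAK kinases were split, with 2 higher and 2 lower in mean. Tyk2, which serves the interferon and IL-12 receptors, had -0.13, 0.19 and -0.22 with saline and -0.75, -0.18 and -0.70 with rhTM. Its difference of -0.50 had an unadjusted limma p of 0.04 and an adjusted p of 0.9999, and the groups overlapped through rhTM replicate 2. Jak1, Jak2 and Jak3 differed by 0.10, 0.07 and -0.01. By the table Tyk2 was -0.46, while Jak2 turned to -0.12 and Jak3 to 0.03. Of 34 tested cytokine receptors that signal through STAT proteins (of 36) 16 had the higher mean with rhTM and 18 the lower, 0 lay without overlap and the median was 0.00. In the authors' values 5 lay above saline on every rhTM array and 6 below, where 9.68% and 12% of all genes did, and the median was -0.03. Lepr, the leptin receptor, had the largest difference by the scanner output, at 0.45 (0.18 by the table). By the table it was that of Il22ra1, a chain of the IL-22 receptor, at 1.55 (0.41 by the scanner output). Its signals were 1.18 and 1.39 on the slide 2 arrays and -1.43 to -0.33 on the others. The table places both slide 2 arrays under rhTM, so slide and treatment cannot be told apart in that value. Of 21 tested cytokines (of 30) 13 were higher in mean and 8 lower, with a median of 0.06 (0.0070 by the table and -0.0015 without rhTM replicate 1), and Tslp, an epithelial cytokine, lay above saline on every rhTM array at 0.72, through -0.42 on rhTM replicate 1 against -1.82 and -1.80 on the other two. This is the direction of 2.95% of all genes, and by the table the Tslp groups overlapped (0.57). Csf3, which encodes G-CSF, differed by 0.77 with overlapping groups, and by 1.05 without overlap by the table.

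The inhibitors of the pathway were as divided. Of 18 tested, 10 had the higher mean with rhTM and 8 the lower, with a median of 0.05 (0.0019 without rhTM replicate 1). Socs7 (0.20) lay above saline on every rhTM array, and Pias4 (-0.26), which attaches SUMO to STAT proteins, and Sh2b3 (-0.05), an adaptor that restrains JAK2, lay below it, so that 3 of 18 were without overlap against 5.52% of all genes. By the table all 3 overlapped, at 0.10 for Socs7, -0.18 for Pias4 and -0.03 for Sh2b3, while 3 others separated, Socs1 and Socs2 above saline and Cish below it, against 21.7% of all genes. Of 6 partners and cofactors 4 were higher in mean and 2 lower, with a median of 0.03, and the largest differences were those of Crebbp (-0.09), a histone acetyltransferase, and Ncoa1 (0.07), a coactivator. In the authors' values 5 of the 6 were higher, the median was 0.11, Crebbp turned to 0.27 and Ep300, a related acetyltransferase, had the largest difference (0.49). Ep300 had 0.43 and 0.40 on the slide 2 arrays and -0.38 to -0.27 on the others, and Crebbp 3.71 and 3.69 against 3.17 to 3.42. The table places both slide 2 arrays under rhTM, so slide and treatment cannot be told apart in these values. None of these genes passed the adjusted test.

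**Figure D5:**
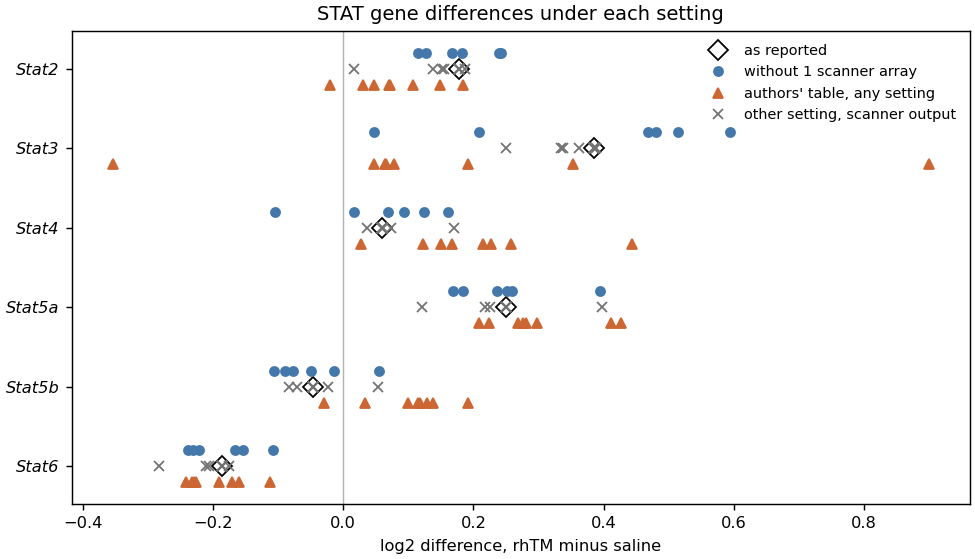
The log2 difference, rhTM minus saline, of each STAT gene under every setting run, with diamonds for the values reported, circles for the scanner output without 1 array, triangles for the authors' table and crosses for other settings. Stat5a stays above 0 and Stat6 below 0 throughout, while Stat3 runs from -0.35 to 0.90 and Stat5b lies on both sides of 0.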

How the data were processed

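RNA was extracted from 1 lung sample of each of 6 mice (3 given saline, 3 given rhTM) and hybridised to 1-colour Agilent SurePrint arrays. The methods name saline in the array section and PBS in the general section as the control injection. The authors deposited scanner output from Feature Extraction (10.7.3.1 in the file headers, 9.1 in the submitters' processing notes). Per the file headers the authors' intensity values are linear, corrected for background and detrended, and the deposited table holds the same intensities. Control spots were left out, the spots of a probe were averaged, 398 of 56605 probes with outlier spots were dropped, and log2 signals were scaled by each array's 75th percentile. Accessions matched 32989 probes to 22907 genes of GRCm38.p6, which is not the build of the array design, so no gene coordinates are given from the files. Probes well above background on all 3 arrays of a group were kept, and the brightest probe of each gene was tested with limma 3.58.1 in R 4.3.3 (lmFit, eBayes, Benjamini-Hochberg over 16366 genes, or 16316 by the table), beside the exact permutation test of the 6 values. On simulated data of 3 against 3 arrays and 16366 genes this recovered 60% of changes of 1 and 91% of changes of 2 on the log2 scale, with 9 false calls. The simulated noise was independent between genes and arrays and held no slide effect, so these rates may not hold for the real arrays. The spike-in slope was 0.826 on saline replicate 1 and 1.07 to 1.09 on the others. Named genes were the members, fixed neighbours of each in its pathway, the genes without overlap in each list (at most 4) or, where there was none, the 2 with the largest differences, and the best correlated genes. Members and lists were chosen with earlier results of these data known. Alternatives covered background correction, scaling, filters, probe choice, slide and replicate blocks, the table, the methods' t-test and leaving out each array.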

Additional observations from a re-analysis of the deposited data

How the results depend on the processing

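Across 24 alternatives for each STAT gene, 131 of the values kept their direction and stayed on the same side of adjusted p 0.05, 12 reversed and 1 passed it. The slide and replicate blocks in the scanner output, the other filters and the methods' t-test left these log2 differences unchanged by construction. Their kept directions carry no information. Stat5a (0.12 to 0.43) and Stat6 (-0.28 to -0.11) kept their direction in every alternative run, while Stat2 ran from -0.021 to 0.24, Stat3 from -0.35 to 0.90 and Stat4 from -0.11 to 0.44. Stat5b reversed by the authors' table (0.12), by the table without 1 array (0.14, 0.12 and 0.10 without saline replicates 1, 2 and 3, and 0.19, 0.033 and 0.13 without rhTM replicates 1, 2 and 3), without saline replicate 1 in the scanner output (0.055, in a range of -0.11 to 0.055 over the arrays left out) and without the exchanged arrays (0.053). Stat2 reversed by the table without saline replicate 3 (-0.021), Stat3 by the table without rhTM replicate 1 (-0.35) and Stat4 without rhTM replicate 1 in the scanner output (-0.11, in a range of -0.11 to 0.16). With slide as a block in the table, Stat3 reached 0.90 at an adjusted p of 0.049. Genes past adjusted p 0.05 numbered 0 with the reported settings, 432 in the table with a slide block and 562 in the table without rhTM replicate 1, where every remaining rhTM array lies on slide 2 and every saline array on slide 1, so slide and treatment cannot be told apart. In the scanner output a slide block gave 0 genes (428 unadjusted). The count of STAT genes with the higher mean with rhTM ran from 3 to 5. Of the 10 list medians, 6 changed sign under at least 1 alternative and 4 (inhibitors and the STAT3, STAT5 and STAT6 targets) did not. By the table the JAK kinases went to -0.04 and the STAT4 targets to 0.16. Without saline replicate 3 the ISGF3 targets went to -0.06 and the partners to -0.04.

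Over all genes, deviations from the group means of samples with the same replicate number had r = -0.30, 0.44 and -0.45 for numbers 1, 2 and 3. The highest r was 0.64, for saline replicate 1 and rhTM replicate 3, which share slide 2. Deviations from a mean of 3 arrays depend on each other, so these values cannot show whether the numbers mark pairs. Each replicate number holds 1 array of each group, so a fit with it as a block cannot change the log2 differences (Stat2 0.18, Stat3 0.39, Stat4 0.06, Stat5a 0.25, Stat5b -0.05, Stat6 -0.19). That fit called 0 genes at an adjusted p under 0.05 and 376 unadjusted, against 306 without the block. The methods' t-test called 340 genes unadjusted, and 0 once Benjamini-Hochberg adjustment was made, and 1 gene passed the fold and p thresholds of the methods, which was no STAT gene. By limma at those thresholds 3 genes were higher and 3 lower in the scanner output, and 52 higher and 13 lower in the table. On simulated data of 3 arrays a group, without a slide effect, 60% of changes of 1 on the log2 scale were recovered, and smaller changes were not simulated.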
